A study of Mus musculus with 2 samples.

Results

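The pyruvate dehydrogenase kinases, a phosphatase that opposes them and the core subunits of the pyruvate dehydrogenase complex were compared in mouse mammary gland between day 0 and day 1 of involution, when the gland regresses once suckling ends. The 9 genes (Pdk1, Pdk2, Pdk3, Pdk4, Pdp1, Pdha1, Pdhb, Dlat and Pdhx) were picked by gene symbol, around the large day 1 signal of Pdk4, so the Pdk4 difference is a description and supports nothing by itself. They are 9 of 18193 named genes and are read by 17 of 34945 probe sets with a single gene symbol. Of the 9 genes, 8 were measured, meaning that the brighter array was above a floor of 77.7 signal units, and Pdk3 was not.

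The animals were CD1 female mice, 6 weeks old when purchased, mated with CD1 males and nursing litters set to 6 pups. Pups were removed by force at day 10 of lactation, which is day 0 of involution, and the other group was taken 1 day later; no genetic or drug treatment is named for either group. For each day, RNA of 5 mice was pooled and hybridised to 1 Affymetrix Mouse Genome 430 Plus 2.0 array, and values are MAS 5 signals, a probe set brightness on a linear scale. With 1 array a day there is no SD, test or p-value between the days, and a ratio compares 2 pools.

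The complex sits in the mitochondrial matrix and converts pyruvate to acetyl-CoA, which commits carbon from glucose to the tricarboxylic acid cycle or, after export as citrate, to fatty acids. In the lactating gland this route supplies carbon for milk fat. The 4 kinases phosphorylate the alpha subunit of the dehydrogenase and switch the complex off, and the phosphatase switches it on again. Pdk4 is known as the kinase that is induced in fasting, above all in muscle.

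Promoter windows of 300 bases, from 250 before to 50 after an annotated start, were read from RefSeq (GRCm38.p6) and matched 8 of the 9 genes. The Pdk4 window is shown beside those of Pdhb, Dlat and Pdhx because these genes had the largest differences in the 2 directions. Each runs 5′ to 3′ on the strand of the gene, and capitals mark the CCAAT box (CCAAT) and the GC box (GGGCGG), each searched on both strands (ATTGG is a CCAAT box on the other strand).
Pdk4, chr6:5496229-5496528, minus strand: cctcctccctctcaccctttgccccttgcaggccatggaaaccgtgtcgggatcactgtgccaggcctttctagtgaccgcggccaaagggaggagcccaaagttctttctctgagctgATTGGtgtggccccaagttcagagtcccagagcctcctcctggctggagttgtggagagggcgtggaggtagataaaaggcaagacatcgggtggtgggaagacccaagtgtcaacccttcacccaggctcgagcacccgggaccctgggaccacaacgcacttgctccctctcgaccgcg
Pdhb, chr14:8172943-8173242, minus strand: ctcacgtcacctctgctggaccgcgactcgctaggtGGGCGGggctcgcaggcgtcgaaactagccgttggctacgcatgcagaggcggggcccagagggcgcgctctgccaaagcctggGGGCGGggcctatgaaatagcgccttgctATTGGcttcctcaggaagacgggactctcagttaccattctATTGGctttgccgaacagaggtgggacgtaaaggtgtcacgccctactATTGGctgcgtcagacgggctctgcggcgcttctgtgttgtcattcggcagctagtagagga
Dlat, chr9:50659731-50660030, minus strand: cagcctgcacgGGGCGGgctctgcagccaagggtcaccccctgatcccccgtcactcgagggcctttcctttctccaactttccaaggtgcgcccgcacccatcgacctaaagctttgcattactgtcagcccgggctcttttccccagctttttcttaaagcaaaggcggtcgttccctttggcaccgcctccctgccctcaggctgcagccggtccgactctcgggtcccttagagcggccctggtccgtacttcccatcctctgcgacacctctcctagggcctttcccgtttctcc
Pdhx, chr2:103073464-103073763, minus strand: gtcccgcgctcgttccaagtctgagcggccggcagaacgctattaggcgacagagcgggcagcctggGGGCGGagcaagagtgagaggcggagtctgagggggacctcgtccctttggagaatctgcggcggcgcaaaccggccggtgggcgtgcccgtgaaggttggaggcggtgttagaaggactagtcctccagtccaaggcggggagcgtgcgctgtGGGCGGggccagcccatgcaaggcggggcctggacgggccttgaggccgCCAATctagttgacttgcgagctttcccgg
The GC box was in the windows of Pdhb (2 matches), Dlat (1) and Pdhx (2) and had 0 matches in that of Pdk4, and 35.7% of the 32851 windows in the table hold it. Among members whose windows are not shown, Pdha1 and Pdk2 had 0 matches and Pdk3 had 2. Pdk1 had 2 in a window and 0 in another. Not all members with a lower signal on day 1 thus held it. The CCAAT box matched 1 time in Pdk4, 3 times in Pdhb and 1 time in Pdhx, and 37.4% of all windows hold it. The Pdk4 window had 12 CpG, against 24 in Pdhb, 18 in Dlat and 28 in Pdhx, with a median of 7 over all windows. The core site of nuclear receptors (AGGTCA, in 16.3% of windows), the FoxO site (GTAAACA, 3.65%) and the STAT site (TTCNNNGAA, 8.30%), each on both strands, had 0 matches in any window of these 4 genes. No match says only that these letters are not in the window.

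On day 1 the array read more Pdk4 transcript and less transcript of the core subunits. As a ratio of day 1 over day 0, 1 of the 8 measured genes was at least 2-fold higher (Pdk4) and 3 were at least 2-fold lower (Pdhb, Pdhx and Dlat). For comparison, 10.4% of all 13239 measured genes passed 2-fold upwards and 13.3% passed it downwards. The genes were chosen on the same 2 arrays, so these counts are a description only. The other 4 members (Pdk1, Pdk2, Pdp1 and Pdha1) were under 2-fold. The median log2 ratio of the members other than Pdk4 was -0.66 over 7 genes, against -0.12 over all measured genes, and Pdk4 lay 6.62 log2 units above the first of these medians.

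**Figure D1:**
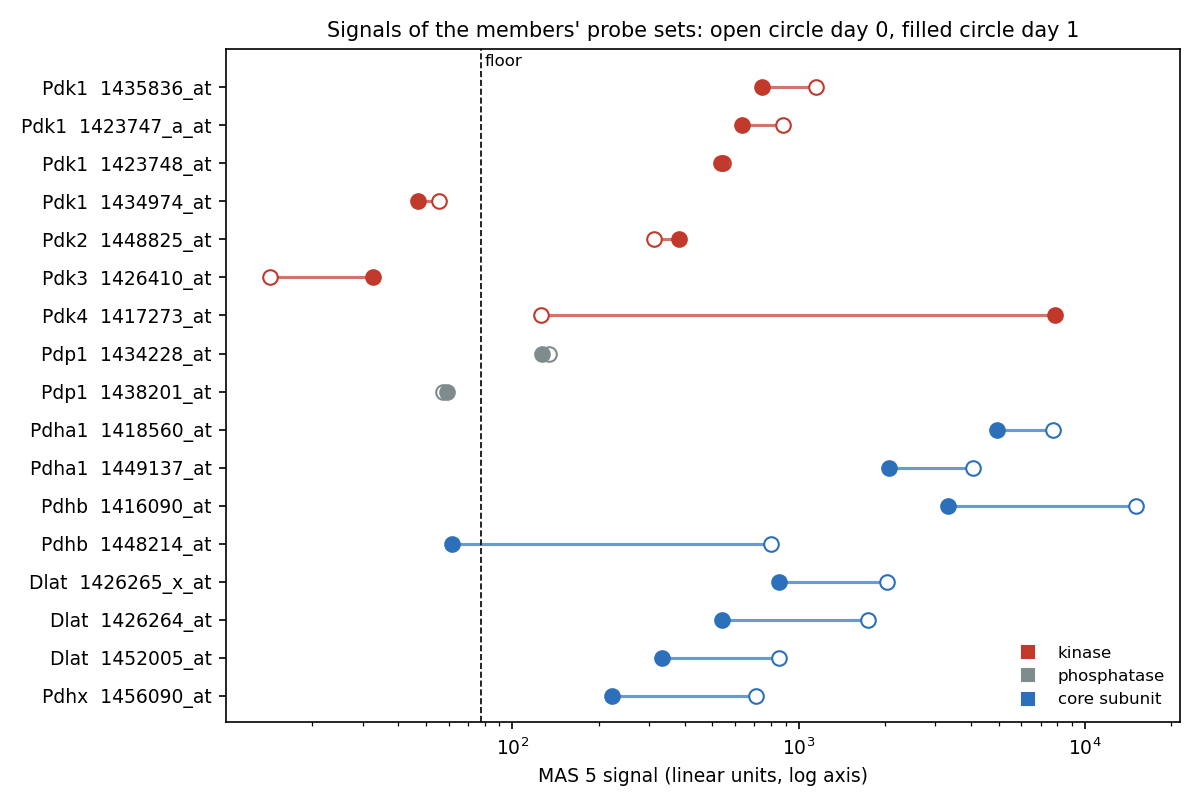
MAS 5 signal (horizontal, log axis) of each of the 17 probe sets of the 9 genes on day 0 (open circles) and day 1 (filled circles), coloured by role, with the floor of 77.7 as a dashed line. The Pdk4 signal goes from 125.9 to 7878.6, and all 8 probe sets of the core subunits have their day 1 circle to the left of their day 0 circle.

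Among the kinases, Pdk4 gave a signal of 125.9 on day 0 and 7878.6 on day 1 at its only probe set (1417273_at), a difference of 62.6-fold. The day 0 value was 1.62 times the floor and the day 1 value 101 times the floor, so the dimmer array sets the size of the fold. With the floor at the 75th percentile of all signals, which the day 0 value did not reach, Pdk4 was at least 31.5-fold higher. No other measured gene had a higher log2 ratio. The 3 nearest, among 9767 other genes above the floor on both arrays, were Angptl4 (46.4-fold), an inhibitor of lipoprotein lipase, the tight junction gene Cldn4 (38.8-fold) and Jpt1 (29.9-fold, with other probe sets down to 2.21 log2). Likeness here is the distance between log2 ratios over 2 arrays and carries no more than that.

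The other kinases did not share this difference. Pdk1, the kinase known to be induced in low oxygen, had 3 measured probe sets. Its signals on day 0 and day 1 were 1146.4 and 742.6 at 1435836_at, 879.3 and 633.5 at 1423747_a_at, and 545.2 and 533.7 at 1423748_at. Its log2 ratios were -0.63, -0.47 and -0.03, so no probe set reached 2-fold, and the remaining probe set (1434974_at) was under the floor on both arrays. Pdk2, the most widely expressed of the kinases, read 312.4 on day 0 and 380.9 on day 1 at 1448825_at, a log2 ratio of 0.29. Pdk3 read 14.2 and 32.6 at 1426410_at, both under the floor, and has no ratio.

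Pdp1, a calcium-sensitive catalytic subunit of the phosphatase, read 134.4 on day 0 and 126.8 on day 1 at 1434228_at (log2 ratio -0.08). The values were 1.73 and 1.63 times the floor. Its other probe set (1438201_at) read 57.4 and 59.2, under the floor on both days. Its log2 ratio lay near the median of the measured kinases other than Pdk4 (-0.17, over Pdk1 and Pdk2).

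All 4 core subunits had a lower signal on day 1, with a median log2 ratio of -1.46 (-0.81 with equal medians and -0.30 when scaled on hybridisation controls, both under 2-fold). Of their 8 probe sets, 8 were lower and 6 at least 2-fold lower, where 12.6% of 22699 measured probe sets of named genes passed 2-fold downwards and 9.86% upwards. Pdhb, the beta subunit of the dehydrogenase, read 15121.5 on day 0 and 3327.9 on day 1 at 1416090_at, 4.54-fold lower. At 1448214_at it read 797.6 and 61.6, the latter under the floor, and was at least 10.3-fold lower. Both Pdhb probe sets were lower, by unequal amounts.

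Pdhx, the binding protein that anchors the shared dihydrolipoamide dehydrogenase to the core, read 708.4 on day 0 and 222.2 on day 1 at 1456090_at, 3.19-fold lower. Dlat, the acetyltransferase that builds the core of the complex, was lower at 3 of 3 probe sets. Its signals were 2033.5 and 856 at 1426265_x_at (2.38-fold lower), 1742.6 and 538.9 at 1426264_at (3.23-fold), and 854.7 and 333.7 at 1452005_at (2.56-fold). The brightest of these carries the suffix of probe sets that may bind other transcripts, and it had the smallest difference of the 3. Pdha1, the alpha subunit on which the kinases act, differed least. It read 7756.4 on day 0 and 4917.9 on day 1 at 1418560_at (log2 ratio -0.66), and 4052 and 2066.4 at 1449137_at (-0.97).

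**Figure D2:**
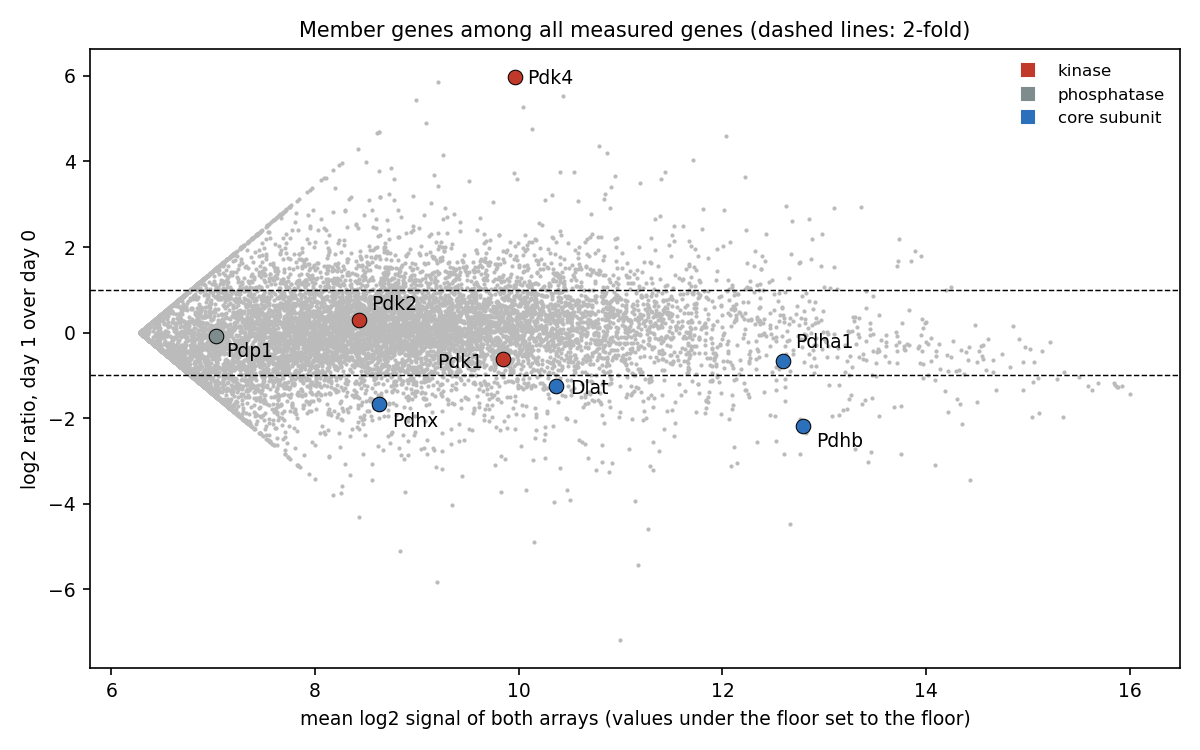
Log2 ratio of day 1 over day 0 (vertical) against the mean log2 signal of both arrays (horizontal) for the 13239 measured genes (grey) and the 8 measured members (coloured by role), with values under the floor set to the floor; dashed lines mark 2-fold. Pdk4 lies at 5.97, above all other genes, and Pdhb, Pdhx and Dlat lie below the lower 2-fold line at -2.18, -1.67 and -1.25.

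In order of log2 ratio, the members ran from Pdk4 (5.97) through Pdk2 (0.29), Pdp1 (-0.08), Pdk1 (-0.63), Pdha1 (-0.66), Dlat (-1.25) and Pdhx (-1.67) to Pdhb (-2.18). Across probe sets that read a single gene, log2 ratios spread with a pooled SD of 0.56 (3943 genes). This describes probe sets and not mice. Pdk2 and Pdp1, Pdp1 and Pdk1, Pdk1 and Pdha1, Dlat and Pdhx, and Pdhx and Pdhb are neighbours closer than this SD. Pdk4 and Pdk2 are farther apart than it. Pdha1 and Dlat are so only narrowly, and the other Pdha1 probe set (-0.97) lies closer to Dlat than this SD. The SD is that of single ratios, and a difference between ratios spreads more widely.

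The arrays differed in brightness. Day 0 had a median of 94.2 and a highest signal of 108570, day 1 a median of 60.1 and a highest signal of 40090.2. For 15 probe sets of hybridisation controls, which are spiked-in bacterial or phage transcripts, the log2 ratios had a median of -1.16 (-2.14 to -0.50). Scaling day 1 up by that amount moved the median of all measured genes to 0.97 and the share of higher genes among those at least 2-fold different from 43.8% to 95.5%; equal medians moved it to 84.1%, ribosomal protein scaling to 71.7%. Scaled in this way, the log2 ratios were 7.13 for Pdk4, -1.02 for Pdhb, -0.51 for Pdhx, -0.09 for Dlat, 0.51 for Pdha1, 0.54 for Pdk1, 1.45 for Pdk2 and 1.08 for Pdp1. Pdha1, Pdk1 and Pdp1 thus changed sign, Pdk2 and Pdp1 were past 2-fold upwards, and Pdhx and Dlat were under 2-fold. Relative to the median of all measured genes, the members moved less. Equal medians, hybridisation control scaling and ribosomal protein scaling each multiply all day 1 signals by a single factor, which this subtraction largely removes. Smaller movement under these was thus fixed in advance and gives no support to the calls. Over the 11 settings tried, these relative values were 4.91 to 6.25 for Pdk4, -2.63 to -1.97 for Pdhb, -1.71 to -1.44 for Pdhx, -1.55 to -1.03 for Dlat and -0.72 to -0.44 for Pdha1.

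**Figure D3:**
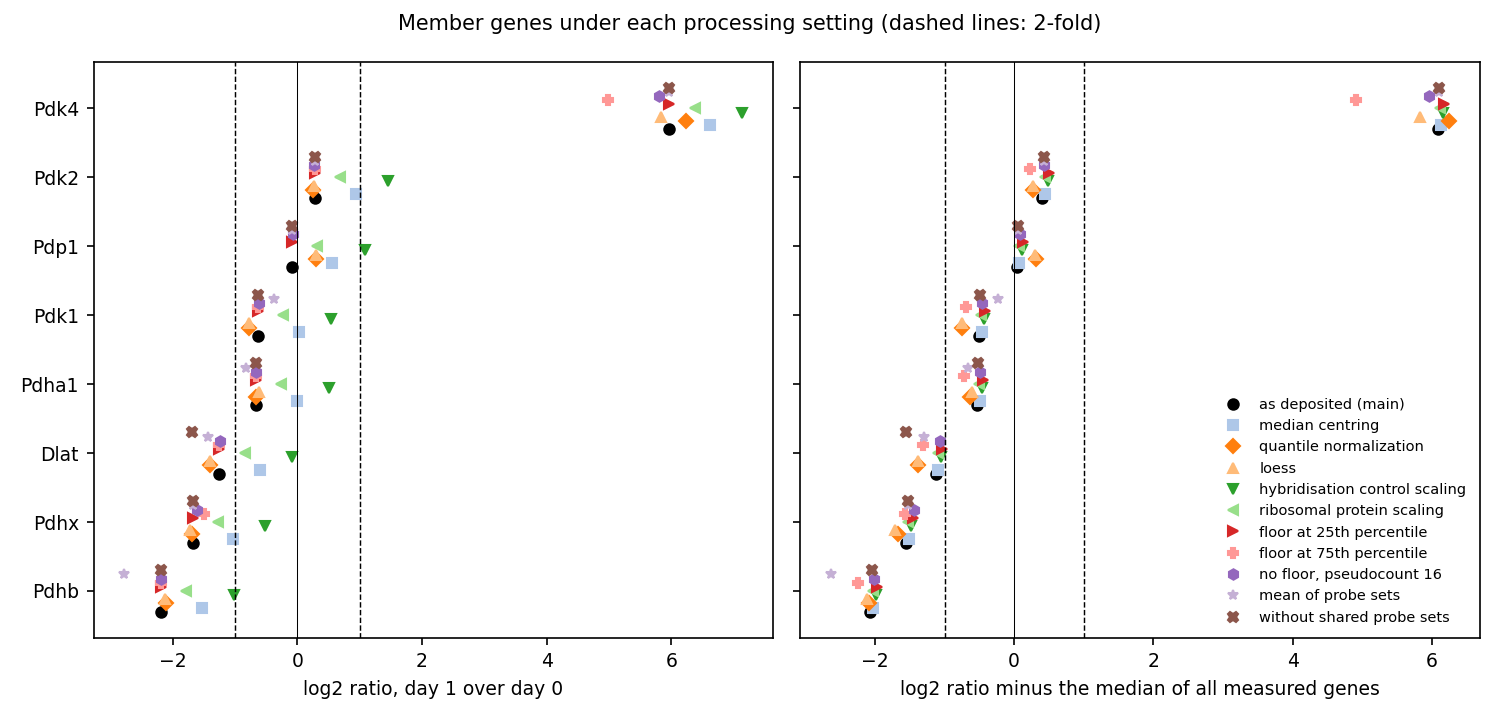
Log2 ratio of day 1 over day 0 for the 8 measured members under each of 11 processing settings, as measured (left) and after subtraction of the median of all measured genes (right); dashed lines mark 2-fold. On the left the values spread with the scaling. On the right, where the subtraction largely removes any single scaling factor, Pdhb, Pdhx and Dlat stay below -1 under each setting and Pdk4 between 4.91 and 6.25.

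Signals from the 2 ends of a transcript gave unlike ratios for some controls, and the part of this in the members' ratios was not tested. On day 0 the signal at the 3′ end over that at the 5′ end was 2.5 (beta-actin), 1.52 (Gapdh) and 13.5 (pyruvate carboxylase). On day 1 these ratios were 1.51, 1.48 and 7.86. The gland also holds several cell types, and in RNA of whole tissue fewer cells of a type and less RNA per cell cannot be told apart. Milk protein genes, which mark the secretory gland, were above the floor on both arrays (10 of 10). All 10 were at least 2-fold lower on day 1, with sums of 785824 and 315702 and a median log2 ratio of -1.28, against -1.46 for the core subunits. The highest signal of each array came from this list, Glycam1 on day 0 (108570) and Csn3 on day 1 (40090.2). Apart from Btn1a1 and Xdh, all genes of the list lay near these highest signals, at 76344.1 or more on day 0 and 31909 or more on day 1. Their log2 ratios were alike, from -1.45 (Glycam1) to -1.19 (Lalba). Whether an upper limit of the signal set these ratios was not tested. The milk protein median was -0.05 after quantile normalization and -0.11 when scaled on hybridisation controls. For the core subunits these values were -1.55 and -0.30. Skeletal muscle markers, of a tissue known for Pdk4, were above the floor on both arrays for 12 of 12 genes, with a summed signal of 23650.3 on day 0 and 26882.4 on day 1. Adipocyte markers were above it for 8 of 8 named genes, with sums of 24170.4 and 24583.6. Brown adipocyte markers summed to 68777.5 and 19668.4, of which Cidea, also a gene of the secretory gland, gave 67825.1 and 18455.3. The other 6 summed to 952.4 and 1213.1. Of the 7, 6 were above the floor on day 0 and 5 on day 1. They went both ways, with 3 log2 ratios above 0, 4 below and a median of -0.48. The defining marker Ucp1 read 18.8 and 384.4 (at least 4.95-fold higher), whereas Prdm16 read 218.2 and 57.4 (at least 2.81-fold lower). Luminal epithelial markers summed to 50015.7 and 88947.1 (9 of 9 above the floor on both days), but went both ways. Krt8, Krt18, Krt19, Cdh1 and Cldn3 were 6.31-fold to 7.55-fold higher, whereas Elf5 (-1.08 log2) and Esr1 (-1.91) were at least 2-fold lower. Macrophage markers summed to 10829.1 and 37880.7 (10 of 10), of which Cd14 gave 3816.8 and 29010.6. The other 9 summed to 7012.3 and 8870.1. Of the 10, 7 had a log2 ratio above 0 and 3 below. Cd14, Cd68 (1.55 log2), Lyz2 (1.15) and Mrc1 (1.01) were at least 2-fold higher and C1qa (-1.23) at least 2-fold lower, with Adgre1 at -0.83. The sums of lymphocyte markers were 955.5 and 2273.4 (4 of 8 on day 0, 8 of 8 on day 1). Myoepithelial markers summed to 21579 and 23335.7 (9 of 9), fibroblast markers to 20022.6 and 24301.8 (9 of 9), endothelial markers to 2546.8 and 2241.3 (7 and 8 of 9) and neutrophil markers to 432.5 and 656.2 (2 of 5 on each day). Their part in the members' ratios was not tested.

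Of 30 genes named by rule that were at least 2-fold lower as deposited, members and markers included, 16 remained so with equal medians and 10 when scaled on hybridisation controls. Among the genes described next, Lipt2, Pdp2, Mpc1, Gpt2 and Ppard were under 2-fold with both of these scalings and Pcx with the latter.

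The remaining parts of the complex and its lipoate cofactor were followed with a list of 7 genes, of which 6 were measured. Of these, 2 were at least 2-fold lower and 0 higher, with a median log2 ratio of -0.66 that became 0.47 when scaled on hybridisation controls. Dld, the dehydrogenase shared with sister complexes, read 1282.5 on day 0 and 973.6 on day 1 (-0.40), and -1.30 at its other probe set. Pdp2, the other catalytic subunit of the phosphatase, read 189.7 and 94.1 (2.02-fold lower, but 0.15 log2 when scaled on hybridisation controls), and Pdpr, its regulatory subunit, 417.7 and 584.4 (0.48; other probe sets down to -0.15). Lipt2, which attaches the precursor of lipoate, read 330.4 and 144.3, 2.29-fold lower, and Lipt1, a lipoyl transferase, was at least 1.89-fold lower. Among 3 measured genes of cofactor supply, the thiamine transporter gene Slc19a2 was 2.34-fold higher (249 and 582; probe sets from 0.32 to 1.41 log2) and the multivitamin transporter gene Slc5a6 4.67-fold lower (420.8 and 90.1). Slc19a3, another thiamine transporter gene, was at least 1.33-fold lower.

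Genes that bring pyruvate to the complex or lead it elsewhere had a median log2 ratio of -0.61. Of the 14 measured, 5 passed 2-fold downwards and 1 upwards, namely Pck1, the cytosolic PEP carboxykinase (2.65-fold, probe sets from -0.41 to 1.40 log2; named after its value was seen). Mpc1, a subunit of the mitochondrial pyruvate carrier, read 12886.7 on day 0 and 5543.1 on day 1 (2.32-fold lower). Pcx, the pyruvate carboxylase that competes for mitochondrial pyruvate, read 6145.7 and 1422.5 (4.32-fold lower). The alanine aminotransferase gene Gpt2 was 2.90-fold lower and the pyruvate kinase gene Pklr at least 3.27-fold lower. Ldha, which interconverts pyruvate and lactate, read 9836.3 and 5677 (-0.79). The list median was -0.01 without probe sets shared between transcripts and above 0 with equal medians (0.04) and under hybridisation control scaling (0.55). Genes that carry and use the acetyl-CoA in the cytosol lay lowest of the lists around the complex, with a median of -2.37 (-1.21 when scaled on hybridisation controls); 6 of the 8 passed 2-fold downwards and 0 upwards. Acacb was 15.6-fold, Acaca 9.31-fold and Acly 8.18-fold lower, the first and second being acetyl-CoA carboxylases and the last the ATP citrate lyase; probe sets of Acly ranged from -3.30 to -0.63 log2.

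Of known transcriptional regulators of Pdk genes, 21 were measured; 7 had at least 2-fold less signal on day 1 and 1 had more (Hif1a, 2.02-fold, probe sets from 0.06 to 1.01 log2, named after its value was seen). Their median was -0.64, and 0.20 when scaled on hybridisation controls. The lowest were Lpin1, a phosphatidate phosphatase that also acts as a coactivator (9.63-fold lower), Srebf1, a regulator of lipid synthesis (5.36-fold lower), and the estrogen-related receptor gene Esrrg (at least 4.34-fold lower; probe sets from -2.12 to -0.59 log2). Foxo1, a forkhead factor active in fasting, read 960.1 on day 0 and 679.1 on day 1 (-0.50). Ppard, a fatty acid receptor, read 377.3 and 175.1, 2.15-fold lower, but 0.055 log2 when scaled on hybridisation controls. Genes known to respond to fasting, PPAR, FoxO or glucocorticoids divided evenly as deposited, with 5 of 18 at least 2-fold higher, 5 lower and a median of 0.01 (0.66 with equal medians and 1.17 when scaled on hybridisation controls). On the higher side Angptl4 went from 203.6 to 9444.2 and the cyclin gene Ccng2 from 592.4 to 2788 (4.71-fold). Also at least 2-fold higher, and named after their values were seen, were Cpt1a (3.11-fold), Fbxo32 (2.57-fold) and Sesn1 (2.05-fold). Their probe sets ranged from 0.90 to 1.64, from 1.36 to 2.25 and from -0.71 to 1.04 log2. On the lower side Klf15, a factor induced by glucocorticoids, went from 775.4 to under the floor (at least 9.98-fold lower). Other glucocorticoid response genes, named after their values were seen, were Per1 (3.92-fold lower), Tsc22d3 (3.80-fold lower, probe sets from -1.93 to -0.69 log2) and Fkbp5. The last was 1.54-fold lower, with probe sets from -1.87 to -0.63 log2. Irs2 (4.14-fold) and Cd36 (3.36-fold), also named after their values were seen, were the remaining genes of the list at least 2-fold lower. Per1, Tsc22d3, Irs2 and Cd36 differed less than Pcx, so like Pcx they were under 2-fold when scaled on hybridisation controls.

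**Figure D4:**
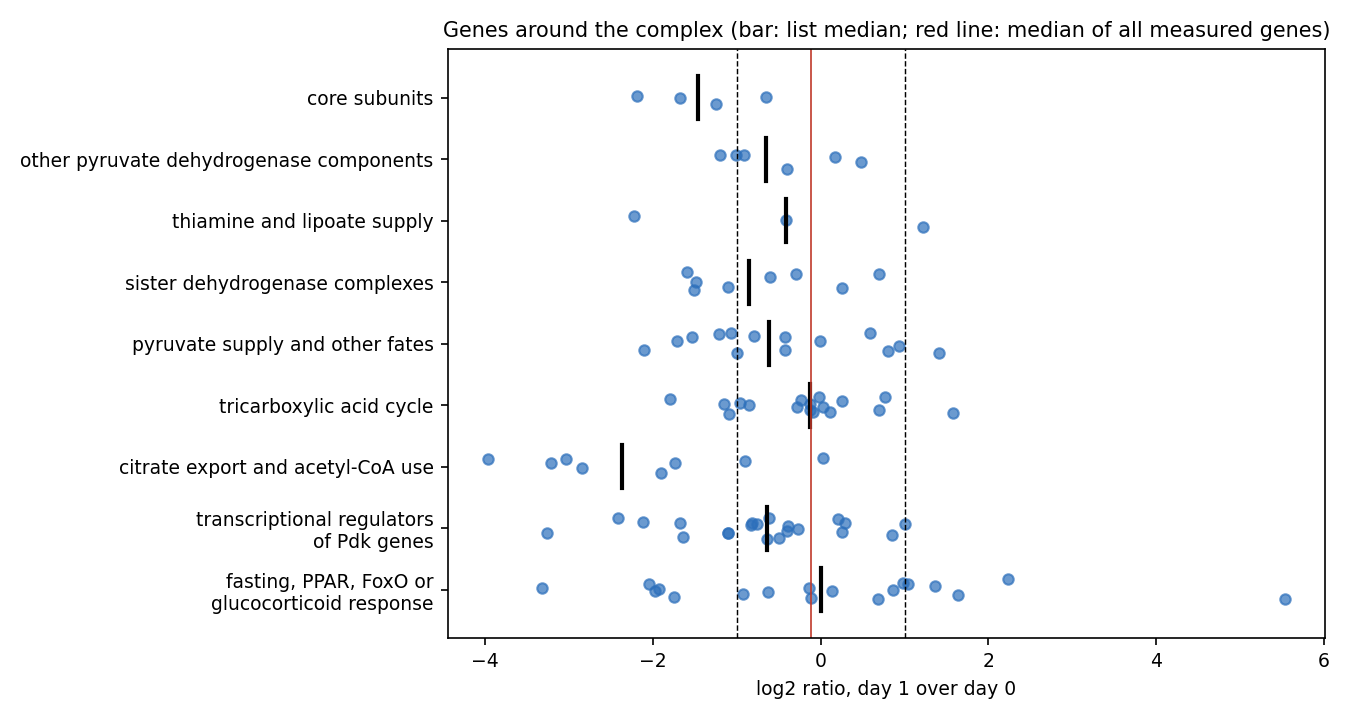
Log2 ratio of day 1 over day 0 (horizontal) of each measured gene in the core subunits and 8 lists of genes around the complex; black bars are list medians, the red line is the median of all measured genes (-0.12) and dashed lines mark 2-fold. The medians of the core subunits (-1.46) and of citrate export and acetyl-CoA use (-2.37) lie below the lower 2-fold line, and that of the tricarboxylic acid cycle (-0.12) lies on the red line.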

How the data were processed

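The deposited values are linear probe set intensities, computed by the authors with MAS 5, per the labels. No source used here gives the scaling target. With 2% of the 45101 values trimmed from either end, each array had a mean of 250.0.

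Symbols came from the platform annotation, updated by gene identifier to RefSeq GRCm38.p6 (34741 of 34945 probe sets with 1 symbol). The 64 control probe sets, 932 annotated to more than 1 symbol and those with no symbol were not assigned to genes. Among the controls, some served for hybridisation control scaling and for the ratios between transcript ends. Pdpk1, also once called Pdk1, is no member. Mpc2 was not analysed here. Signals under 77.7, the median of all signals, were set to it before day 1 was divided by day 0 on the log2 scale. A gene was represented by its brightest probe set. A value at the floor on 1 array gives a bound, written "at least". Named genes are the members, the 3 largest absolute ratios of each list, 11 genes fixed by name and the 3 ratios nearest to Pdk4.

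Members and lists were chosen with earlier results of these data known. Alternatives were 5 scalings (median, quantile, loess with a span of 0.3, hybridisation controls, ribosomal proteins), 2 other floors, a pseudocount of 16, the mean of probe sets, no shared probe sets, and 1.5-fold and 3-fold thresholds. Python 3.11.15, pandas 2.3.3 and statsmodels 0.14.6 were used, and ratios were checked on simulated data. The number of arrays limits the precision.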

Additional observations from a re-analysis of the deposited data

How the results depend on the processing

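Pdk4 was at least 2-fold higher in every setting run. Its log2 ratio moved from 5.97 to 6.62 with equal medians, 7.13 under hybridisation control scaling and 4.98, a bound, with the floor at the 75th percentile, where its distance to the median of the other members was 5.93 in place of 6.62. Members at least 2-fold higher numbered 3 under hybridisation control scaling, and members at least 2-fold lower 1 there and 5 at a 1.5-fold threshold, in place of 1 and 3. Of all measured genes, 48.7% were at least 2-fold higher and 2.28% lower under hybridisation control scaling, and 27.2% passed 1.5-fold downwards. Dlat was under 2-fold with equal medians and ribosomal protein scaling (-0.60 and -0.85). Genes at least 2-fold higher and lower, 1374 and 1764 as deposited, were 3631 and 685 with equal medians, 6292 and 295 under hybridisation control scaling, 2580 and 1018 under ribosomal protein scaling, 852 and 606 with the floor at the 75th percentile, 2699 and 3601 at 1.5-fold and 510 and 573 at 3-fold. The lower count was 4306 with the floor at the 25th percentile and 3051 with no floor. Of 46 named genes with a log2 ratio below 0, 19 were above 0 under hybridisation control scaling, among them Pdk1 (0.54), Pdha1 (0.51), Pdp1 (1.08), Dld (0.77), Ldha (0.37), Foxo1 (0.66), Bckdk (0.87) and Lipt1 (0.18). Of those at least 2-fold lower as deposited, 4 changed sign in this way, Pdp2 (0.15), Suclg2 (0.016), Kdr (0.15) and Ppard (0.055). Idh2, which was 2.98-fold higher as deposited, changed sign without shared probe sets (-1.12). The cause of these changes was not tested. A value was taken as moved beyond 0.56 log2, the pooled SD between probe sets of a gene, and a count beyond 1.5 times. The probe set of each gene was held as in the deposited values under each scaling. Alternatives for genes outside the members, for the core median and for the median of all genes were chosen after seeing the data. No paired analysis was possible because each day has 1 array.

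With 1 array a day, no value here has an error between mice, and signals near the floor (Pdp1, and Pdk4 on day 0) are the least certain. Pdk4, Pdk2 and Pdhx rest on 1 probe set each.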

Other observations

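The pyruvate dehydrogenase complex has sister complexes built on the same plan. Of 8 measured genes, 4 were at least 2-fold lower on day 1 and 0 higher, with a median log2 ratio of -0.85 (0.31 under hybridisation control scaling). All 4 belong to the complex that degrades branched-chain amino acids. Its dehydrogenase subunit genes Bckdha and Bckdhb were 2.85-fold and 2.14-fold lower, its acyltransferase gene Dbt 2.79-fold, and the gene of its phosphatase, Ppm1k, 3.03-fold; Bckdhb was named after its value was seen. Bckdha, Dbt and Ppm1k were under 2-fold with equal medians (-0.86, -0.83 and -0.95 log2) and when scaled on hybridisation controls (-0.35, -0.32 and -0.43). Both scalings multiply all day 1 signals by a single factor. Bckdhb, with a smaller difference as deposited (-1.10 log2), was therefore under 2-fold with both as well. Bckdk, its kinase and a relative of the Pdk family, read 984.6 on day 0 and 804.6 on day 1 (-0.29, and 0.50 at its other probe set). The subunits of the oxoglutarate dehydrogenase complex, named after their values were seen, had log2 ratios of 0.25 (Ogdh) and 0.70 (Dlst, with a probe set at -0.95).

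Of 17 measured genes of the tricarboxylic acid cycle, 3 were at least 2-fold lower and 1 higher, with a median of -0.12, the same as that of all measured genes to 2 decimals. Mdh1, the cytosolic malate dehydrogenase, was 3.48-fold lower (-0.64 log2 when scaled on hybridisation controls), and Suclg2, a subunit of succinyl-CoA ligase, 2.22-fold lower, a call lost with equal medians and when scaled on hybridisation controls or ribosomal proteins. Idh2, an isocitrate dehydrogenase, was 2.98-fold higher at its brightest probe set, whereas its other probe set had a log2 ratio of -1.12. Cs, the citrate synthase that takes up the acetyl-CoA made by the complex, was named after its value was seen and read 9114.8 on day 0 and 4288.3 on day 1, 2.13-fold lower, with probe sets from -1.26 to -0.95 log2. Its difference was smaller than that of Suclg2, so its call is lost under the same scalings. Like that of Suclg2, its sign changes when scaled on hybridisation controls.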
